A study of Mus musculus with 6 samples.

Results

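The genes described here are *Hmox1* and the core of the NRF2 antioxidant system, 10 genes chosen by symbol from the 54532 genes of the raw count table. They comprise 7 classic targets (*Hmox1*, *Nqo1*, *Gclc*, *Gclm*, *Txnrd1*, *Srxn1* and *Gsr*) and 3 regulators (*Nfe2l2*, which encodes NRF2, *Keap1* and *Bach1*). RNA-seq was performed on 6 single mouse hearts at embryonic day (E) 9.5. Of these, 3 came from *Smyd1-KO* embryos, which carry a conventional null allele of *Smyd1* in every tissue and come from a line kept as *Smyd1+/−* heterozygotes, and 3 came from WT embryos. Both sexes were used in the study, and neither group had any treatment. Heart and skeletal muscle express SMYD1, an enzyme that methylates histones, and the heart does not form normally without it. The comparison asks how these genes are expressed in the embryonic heart in the absence of SMYD1.

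NRF2 is a transcription factor that KEAP1 holds in the cytoplasm and directs to degradation by a CUL3 ubiquitin ligase. When electrophiles or oxidants modify KEAP1, NRF2 accumulates, pairs with small MAF proteins and binds antioxidant response elements near genes of glutathione synthesis, thioredoxin reduction and quinone detoxification. BACH1 competes for the same elements with the same MAF partners and leaves them when it binds heme, and *Hmox1*, which encodes the inducible heme oxygenase, is its best known target and also responds to low oxygen and other stresses.

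Total counts on genes were lowest in *Smyd1-KO* heart 1, at 48627825, and highest in WT heart 3, at 64217529. Levels are given as CPM, counts scaled to library size with TMM factors, and as CPM per kb of exon where genes are compared with each other, except within the lists of cell type markers. For *Smyd1* itself, *Smyd1-KO* hearts 1, 2 and 3 had 101, 222 and 206 CPM, and the corresponding values of WT were 414, 379 and 270 CPM. Each *Smyd1-KO* heart lay below each WT heart, but the gene was not called (log2 fold change -1.01, SE 0.30, adjusted *P*=0.0973 by edgeR). DESeq2 called it lower (adjusted *P*=0.00534). Which exons the allele lacks was not analysed here. *Smyd1-KO* heart 1 stood apart from the other hearts. It had the fewest counts, and 10 cardiomyocyte markers summed to 6412 CPM in it, against 13506 and 13662 CPM in the other *Smyd1-KO* hearts and 13982, 14422 and 9219 CPM in the WT hearts.

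Of the 10 genes, all of which passed the filter on low counts, edgeR called 1 higher (*Hmox1*) and 1 lower (*Txnrd1*) in *Smyd1-KO* hearts. The call required an adjusted *P* below 0.05 over all 19372 tested genes together with a log2 fold change of 0.5 or more in either direction, which 4.28% of all tested genes passed, 2.86% as higher and 1.42% as lower. DESeq2, which called 9.29% of the genes to which it gave an adjusted *P*, called the same pair. The median log2 fold change was -0.14 over the 10 genes and -0.32 over the 7 targets, against -0.00255 over all tested genes. Of the 6 targets other than *Hmox1*, 5 had a negative log2 fold change, as did 9731 of the 19372 tested genes. The median of the 6 was -0.37. The hearts of the genotypes did not overlap in 5 of the 10 genes, 2 of them higher (*Hmox1*, *Bach1*) and 3 lower (*Gclm*, *Txnrd1*, *Gsr*), a separation that 31.3% of all tested genes showed. Without *Smyd1-KO* heart 1, edgeR again called *Hmox1* and *Txnrd1* and no other gene of the 10, while the number of genes called among all those tested went from 830 to 1256. The number of the 10 genes called fell to 1 without *Smyd1-KO* heart 2, *Smyd1-KO* heart 3, WT heart 1 or WT heart 3, and to 0 without WT heart 2, while the calls among all tested genes fell to 248, 344, 501, 171 and 97 in the same order.

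**Figure D1:**
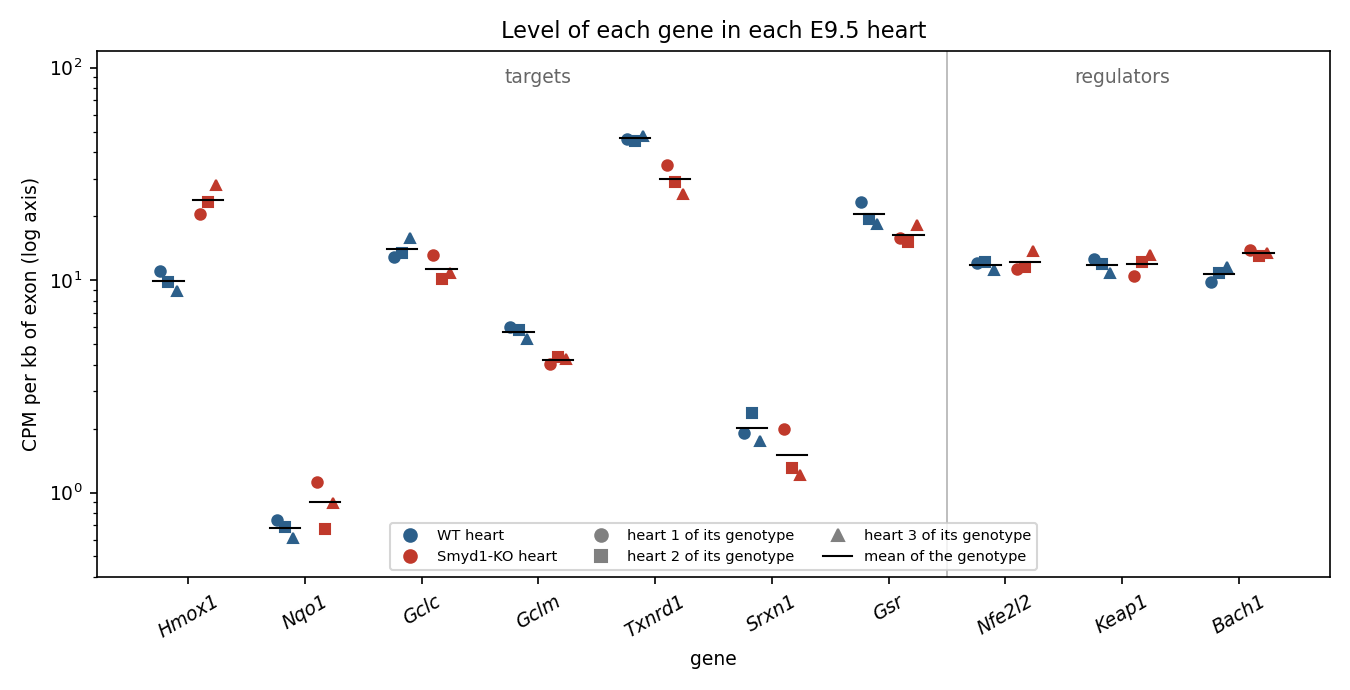
Level of each gene in each E9.5 heart, in CPM per kb of exon on a log axis. Each symbol is 1 heart, with WT in blue and *Smyd1-KO* in red, and the short black lines are the means of 3 hearts. *Hmox1* lies higher in each *Smyd1-KO* heart than in any WT heart, and *Txnrd1*, *Gclm* and *Gsr* lie lower.

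*Hmox1* (ENSMUSG00000005413, GRCm38 chromosome 8, 75093621 to 75100589) opens the heme ring, which releases iron, carbon monoxide and biliverdin. *Smyd1-KO* hearts 1, 2 and 3 had 35.7, 40.8 and 48.8 CPM, from 1734, 2410 and 2788 counts. The WT hearts had 19.4, 17.1 and 15.6 CPM, from 1156, 1083 and 1036 counts. The lowest *Smyd1-KO* heart thus lay above the highest WT heart, and the mean was 41.8 ± 6.65 CPM (SD, n = 3) against 17.3 ± 1.94 CPM, 2.41 times as high. The log2 fold change was 1.27 (SE 0.14, 95% interval 0.93 to 1.61, adjusted *P*=0.00668 by edgeR). Over the alternatives to the processing, the adjusted *P* ranged from 5.14e-12 with DESeq2 to 0.0856 by edgeR. The call was lost at that upper end, with the replicate number in the model, and without WT heart 2 (log2 fold change 1.26, adjusted *P*=0.0544 by edgeR). Without *Smyd1-KO* heart 1 the log2 fold change was 1.37. *Hmox2*, the constitutive heme oxygenase, had 48.8, 47.5 and 51.5 CPM in *Smyd1-KO* hearts against 54.9, 51.3 and 46.6 CPM in WT hearts, which overlap (log2 fold change -0.05, adjusted *P*=0.768 by edgeR). Per kb of exon, the ratio of *Hmox1* to *Hmox2* was 0.925, 1.09 and 1.20 in *Smyd1-KO* hearts and 0.448, 0.421 and 0.423 in WT hearts. The inducible transcript was therefore below the constitutive one in each WT heart and at a similar level to it in *Smyd1-KO* hearts.

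*Txnrd1* (ENSMUSG00000020250, GRCm38 chromosome 10, 82833951 to 82897712), the cytosolic thioredoxin reductase, was the other gene past both thresholds. *Smyd1-KO* hearts 1, 2 and 3 had 247, 206 and 180 CPM, and WT hearts had 326, 321 and 339 CPM. The WT hearts lay close together and above each *Smyd1-KO* heart, and the *Smyd1-KO* hearts spread more widely, with 211 ± 34.1 CPM (SD, n = 3) against 329 ± 9.23 CPM in WT. The log2 fold change was -0.64 (SE 0.12, 95% interval -0.93 to -0.35, adjusted *P*=0.0332 by edgeR). The adjusted *P* ranged from 0.000416 to 0.134 over the alternatives. By edgeR it was 0.118 without *Smyd1-KO* heart 2, 0.0743 without *Smyd1-KO* heart 3, 0.0751 without WT heart 1, 0.134 without WT heart 2 and 0.123 without WT heart 3, each of which ended the call, and 0.0088 without *Smyd1-KO* heart 1. The replicate number in the model also ended the call (adjusted *P*=0.127 by edgeR). Within *Smyd1-KO* hearts, heart 1 had the lowest *Hmox1* and the highest *Txnrd1*, and heart 3 had the highest *Hmox1* and the lowest *Txnrd1*. *Txnrd2*, the mitochondrial reductase, had 20.1 to 21.3 CPM in *Smyd1-KO* hearts against 21.1 to 23.6 CPM in WT hearts (log2 fold change -0.14, adjusted *P*=0.407 by edgeR). Per kb of exon, *Txnrd1* was 7.50, 6.37 and 5.22 times as high as *Txnrd2* in *Smyd1-KO* hearts and 8.58, 8.49 and 10.0 times in WT hearts.

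Glutamate-cysteine ligase, the rate-limiting enzyme of glutathione synthesis, has a catalytic subunit encoded by *Gclc* and a modifier subunit encoded by *Gclm*. *Gclm* (ENSMUSG00000028124, chromosome 3, 122245557 to 122270732) was found at 25.4, 27.3 and 26.7 CPM in *Smyd1-KO* hearts, compared with 37.8, 36.7 and 33.1 CPM in WT hearts. The genotypes did not overlap, and the hearts within each were close to one another. Its log2 fold change of -0.44 (SE 0.09, 95% interval -0.65 to -0.23, adjusted *P*=0.0395 by edgeR) passed the limit on *P* but not that on the fold change. With no limit on the fold change, 3 of the 10 genes and 5.33% of all tested genes were called. By edgeR the adjusted *P* of *Gclm* was 0.0551 without *Smyd1-KO* heart 1, 0.118 without heart 2 and 0.0983 without heart 3, and 0.0871, 0.164 and 0.0846 without WT hearts 1, 2 and 3, so that leaving out any heart took it above 0.05, as did no filter on low counts (0.0513). Over the alternatives it ranged from 0.00454 with DESeq2 to 0.164. Of its 6291 exon bases, 296 are shared with *Gm17494* on the opposite strand, which had 546 counts in all hearts together. *Gclc* (ENSMUSG00000032350, chromosome 9, 77754535 to 77794485) was found at 49.1, 38.1 and 40.6 CPM in *Smyd1-KO* hearts, compared with 48.5, 50.3 and 59.5 CPM in WT hearts. *Smyd1-KO* heart 1 lay within the WT range and the other *Smyd1-KO* hearts below it, with a log2 fold change of -0.31 (SE 0.13, adjusted *P*=0.183 by edgeR). Per kb of exon, *Gclc* was 2.70 ± 0.47 times as high as *Gclm* in *Smyd1-KO* hearts and 2.48 ± 0.46 times in WT hearts (SD, n = 3), a difference smaller than the spread between hearts.

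The remaining targets were not called. *Gsr*, which encodes the reductase that regenerates glutathione, was found at 43.4, 41.5 and 50.03 CPM in *Smyd1-KO* hearts, compared with 64.2, 53.2 and 50.7 CPM in WT hearts. The groups did not overlap, but *Smyd1-KO* heart 3 and WT heart 3 nearly touched (log2 fold change -0.32, SE 0.12, adjusted *P*=0.153 by edgeR). The estimate leaned on WT heart 1, without which it was -0.201 (adjusted *P*=0.29 by edgeR), and it ran from there to -0.400 over the alternatives. *Srxn1*, which encodes the sulfiredoxin that repairs overoxidized peroxiredoxins, was found at 5.64, 3.69 and 3.40 CPM in *Smyd1-KO* hearts, compared with 5.37, 6.71 and 4.93 CPM in WT hearts. *Smyd1-KO* heart 1 again lay within the WT range, and the log2 fold change of -0.42 (SE 0.24, adjusted *P*=0.33 by edgeR) was -0.68 (adjusted *P*=0.0885 by edgeR) without that heart, the lowest adjusted *P* that any alternative gave it. *Nqo1*, the quinone reductase often used as a readout of NRF2, was the weakest gene of the list, with 85, 62 and 79 counts in *Smyd1-KO* hearts and 69, 68 and 63 counts in WT hearts. The groups overlapped at 1.05 to 1.75 CPM against 0.946 to 1.16 CPM, and the 95% interval of the log2 fold change ran from -0.20 to 0.99.

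**Figure D2:**
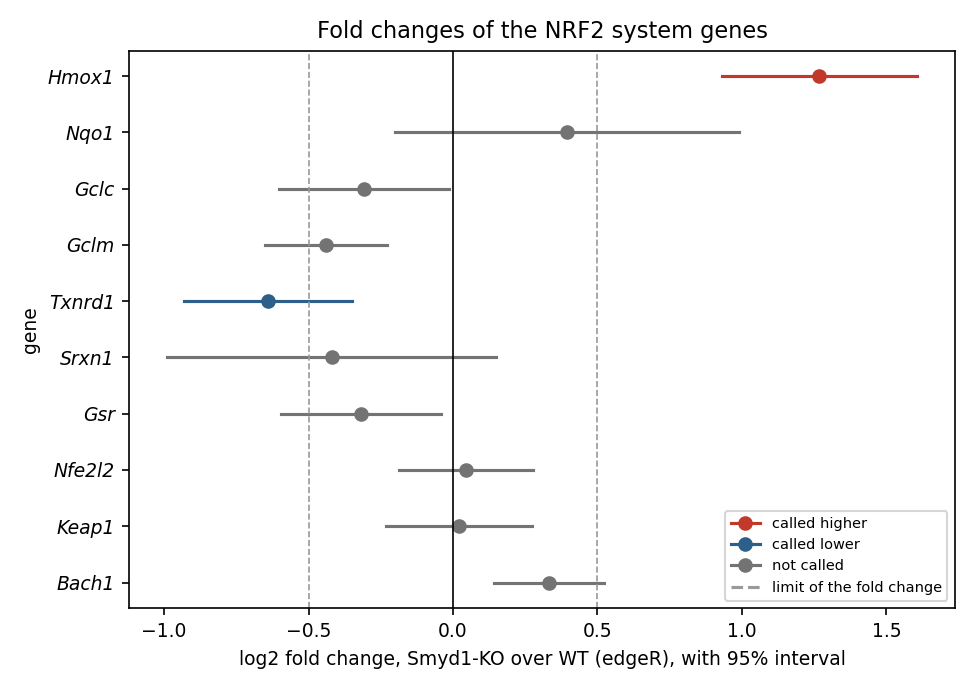
Log2 fold change of each gene, *Smyd1-KO* over WT, by edgeR, with its 95% interval as a line, from 3 hearts of each genotype. Dashed lines mark the limit of 0.5 on either side, which the estimates of *Hmox1* (1.27) and *Txnrd1* (-0.64) pass.

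None of the 3 regulators was called by edgeR or DESeq2, and 1 had an unadjusted *P* under 0.05 by edgeR, as did 25.1% of all tested genes. *Nfe2l2* was found at 42.7, 43.9 and 51.9 CPM in *Smyd1-KO* hearts, compared with 45.6, 46.2 and 42.4 CPM in WT hearts. The groups overlapped, and the log2 fold change of 0.05 had a 95% interval of -0.19 to 0.28 (adjusted *P*=0.811 by edgeR). *Keap1* was found at 48.8, 56.9 and 61.6 CPM in *Smyd1-KO* hearts, compared with 58.7, 55.9 and 50.5 CPM in WT hearts. These also overlapped, with a log2 fold change of 0.02 and a 95% interval of -0.23 to 0.27 (adjusted *P*=0.929 by edgeR). The counts of *Keap1* share 510 exon bases with the antisense gene *Gm16754*, which had 1235 counts in all hearts together. *Bach1*, the repressor of *Hmox1*, was the regulator with 3 *Smyd1-KO* hearts above all 3 WT hearts, at 85.8, 80.6 and 82.9 CPM against 60.5, 66.4 and 70.8 CPM. Its log2 fold change was 0.33 (SE 0.08, 95% interval 0.14 to 0.52, adjusted *P*=0.0606 by edgeR). DESeq2 gave it an adjusted *P* of 0.0276, and over the alternatives the adjusted *P* ranged from there to 0.202, without a fold change past the limit in any.

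Per kb of exon, the order of the levels in WT hearts was led by *Txnrd1* at 46.4 ± 1.30 CPM per kb (SD, n = 3), followed by *Gsr* at 20.4 ± 2.60 and *Gclc* at 14.0 ± 1.56. *Nfe2l2* (11.8 ± 0.54), *Keap1* (11.7 ± 0.88), *Bach1* (10.7 ± 0.84) and *Hmox1* (9.90 ± 1.11) came next, and the ranges of neighbors among these genes overlapped. *Gclm* (5.70 ± 0.40), *Srxn1* (2.01 ± 0.33) and *Nqo1* (0.68 ± 0.07) were lowest, without overlap between neighbors. In *Smyd1-KO* hearts *Hmox1* took the second place at 23.9 ± 3.80 CPM per kb, in a range that overlapped that of *Txnrd1* (29.8 ± 4.81). *Gsr* followed at 16.3 ± 1.63, then *Bach1*, *Nfe2l2*, *Keap1* and *Gclc* between 13.4 and 11.3 CPM per kb with ranges that overlapped between neighbors. *Gclm* (4.21 ± 0.16), *Srxn1* (1.504 ± 0.43) and *Nqo1* (0.90 ± 0.23) were again the lowest.

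The pattern of *Hmox1* over the 6 hearts was compared with that of 13041 other genes by the root mean square difference of log2 CPM after each gene's mean was subtracted. *Slc2a1*, which encodes the glucose transporter GLUT1, was closest, with a difference of 0.0616. Its values were 1946, 2151 and 2571 CPM in *Smyd1-KO* hearts, compared with 999, 826 and 763 CPM in WT hearts, with the same order of hearts as *Hmox1*. The antiviral membrane protein gene *Bst2* (0.0689), *Renbp*, which encodes a renin-binding epimerase (0.085), the actin regulator gene *Gmfg* (0.0905) and *Mxi1*, which encodes a MAX partner that opposes MYC (0.109), followed. Their log2 fold changes were 1.37 for *Slc2a1* and 1.36, 1.15, 1.37 and 1.24 for the others. The measure includes the difference between genotypes, so a fold change close to that of *Hmox1* follows from how these genes were chosen. *Bst2* and *Gmfg* were low, at 1.64 to 5.99 CPM.

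**Figure D3:**
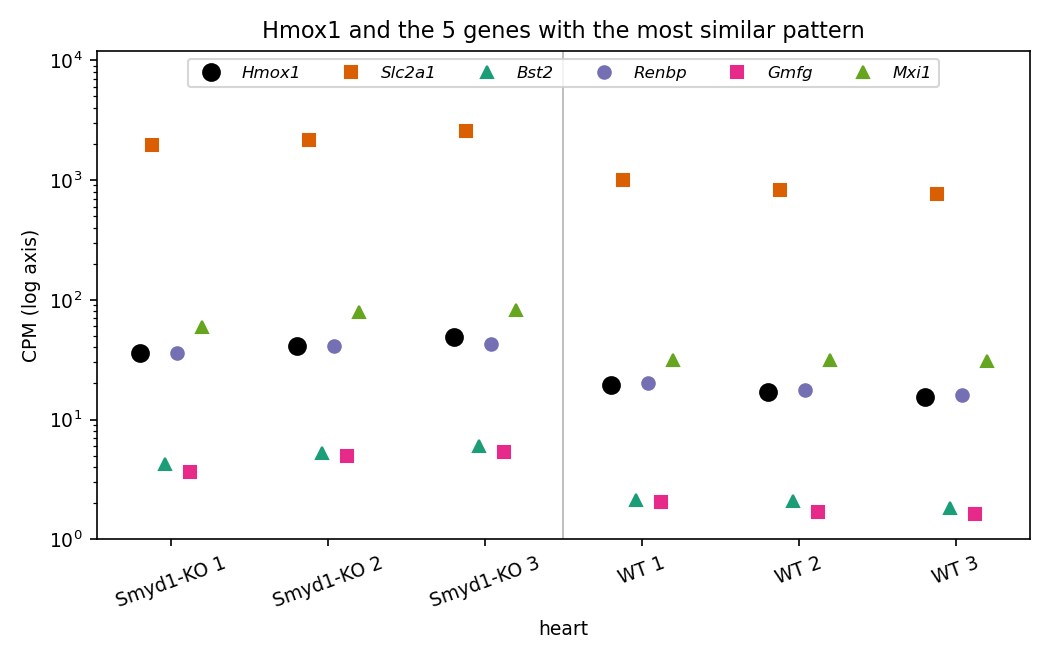
CPM on a log axis of *Hmox1* and the 5 genes nearest to it in pattern, in each of the 3 *Smyd1-KO* and 3 WT hearts, with 1 symbol per gene and heart. The 5 genes were chosen for this likeness, genotype difference included, and span levels from 1.64 CPM (*Gmfg*) to 2571 CPM (*Slc2a1*).

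Around these 10 genes, 80 other genes of NRF2 control, heme breakdown, glutathione and thioredoxin metabolism, superoxide and peroxide removal and NADPH supply were counted, of which 78 passed the filter. edgeR called 4 of them higher (*Maff*, *Slc3a2*, *Chac1* and *Gstm1*) and 2 lower (*Nfe2* and *Gstt1*), which is 7.69% of those tested beside 4.28% of all genes. Their median log2 fold change was -0.02, with 37 positive and 41 negative values. DESeq2 called 7 higher and 2 lower, beside its 9.29% of all genes in either direction. *Osgin1* and *Aldh3a1*, both targets of NRF2, did not pass the filter, with at most 8 and 1 counts in any heart.

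In the control of NRF2, edgeR and DESeq2 each called 1 of 13 genes higher and 1 lower. In either direction, edgeR called 4.28% and DESeq2 9.29% of all genes. *Maff* encodes a small MAF protein, one of the partners that NRF2 and BACH1 need to bind DNA. Its level was 36.0, 46.8 and 48.1 CPM in *Smyd1-KO* hearts, compared with 20.8, 17.2 and 11.6 CPM in WT hearts, so that the groups lay well apart (log2 fold change 1.402, SE 0.22, adjusted *P*=0.0191 by edgeR). The other small MAF genes were not called: *Mafg* had 101 to 105 CPM in *Smyd1-KO* and 98.9 to 107 CPM in WT hearts, and *Mafk* had 28.8 to 40.4 CPM and 29.7 to 42.2 CPM. Per kb of exon, *Maff* was at 6.37 ± 1.78 CPM per kb in WT hearts, below *Mafg* at 18.4 ± 0.75, and at 16.8 ± 2.57 in *Smyd1-KO* hearts, in which *Mafg* was at 18.4 ± 0.35 (SD, n = 3). *Nfe2*, a relative of NRF2 that drives globin genes in the red cell lineage, was found at 0.576, 0.863 and 0.666 CPM in *Smyd1-KO* hearts, compared with 2.54, 3.04 and 3.15 CPM in WT hearts (log2 fold change -2.05, SE 0.23, adjusted *P*=0.00679 by edgeR). *Sqstm1*, which encodes a receptor of selective autophagy that binds KEAP1, had the highest level per kb of the group in the mean over all hearts and in *Smyd1-KO* hearts, while *Nfe2l1* was above it in WT hearts (40.2 ± 2.42 against 35.7 ± 2.83 CPM per kb). *Sqstm1* had 114, 149 and 178 CPM in *Smyd1-KO* hearts against 126, 125 and 109 CPM in WT hearts (log2 fold change 0.30, adjusted *P*=0.297 by edgeR).

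*Chac1* and *Slc3a2* had the smallest *P* among the glutathione genes. *Chac1* encodes an enzyme that degrades glutathione in the cytosol, and is a well known target of ATF4. Its level was 7.51, 21.0 and 17.1 CPM in *Smyd1-KO* hearts, from 365, 1242 and 975 counts, compared with 0.588, 0.914 and 0.871 CPM in WT hearts, from 35, 58 and 58 counts. Each *Smyd1-KO* heart was far above each WT heart, with heart 1 the lowest of them (log2 fold change 4.26, SE 0.43, adjusted *P*=0.00465 by edgeR). It was the only gene of 7 in glutathione breakdown that edgeR called, beside 4.28% of all tested genes. The median log2 fold change of the 7 was -0.12. *Slc3a2* encodes the heavy chain shared by the cystine importer xCT and other amino acid transporters. The values were 129, 126 and 121 CPM in *Smyd1-KO* hearts, compared with 79.7, 80.0 and 77.5 CPM in WT hearts, with little spread in either group (log2 fold change 0.66, SE 0.07, adjusted *P*=0.0051 by edgeR). The light chain of xCT, *Slc7a11*, a target of NRF2 and ATF4, lay between 1.80 and 4.85 CPM with overlapping groups (log2 fold change 0.35, SE 0.36, adjusted *P*=0.589 by edgeR). Of the 5 genes listed as glutathione synthesis and import, which include the exporter genes *Abcc1* and *Abcc4*, edgeR called only *Slc3a2* and DESeq2 called 2 higher. The shares of all genes called in either direction were 4.28% by edgeR and 9.29% by DESeq2.

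Among 16 genes of glutathione peroxidases, transferases and glutaredoxins, edgeR called 1 higher and 1 lower, both of them glutathione transferases. DESeq2 called 2 higher and 1 lower. Over all genes, edgeR called 2.86% higher and 1.42% lower, and DESeq2 called 9.29% in either direction. *Gstm1* was found at 19.7, 16.9 and 18.5 CPM in *Smyd1-KO* hearts, compared with 10.5, 10.8 and 8.42 CPM in WT hearts (log2 fold change 0.89, SE 0.14, adjusted *P*=0.0186 by edgeR), and its counts are uncertain in so far as reads of its close paralogs could be assigned to it. *Gstt1* was found at 5.22, 5.77 and 6.75 CPM in *Smyd1-KO* hearts, compared with 13.7, 14.8 and 11.1 CPM in WT hearts (log2 fold change -1.16, SE 0.17, adjusted *P*=0.0155 by edgeR). These transferases of different classes thus moved in opposite directions, each without overlap of the genotypes. *Gpx3*, the secreted peroxidase and the most abundant gene of the group per kb, ranged from 422 to 811 CPM in *Smyd1-KO* and from 347 to 591 CPM in WT hearts (adjusted *P*=0.373 by edgeR).

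The calls of these 6 genes depended on single hearts to different degrees. *Chac1* and *Slc3a2* were called with any 1 heart left out. By edgeR, *Nfe2* lost its call without WT heart 2 (adjusted *P*=0.0522). *Maff* lost it without *Smyd1-KO* heart 2 (0.0656), *Smyd1-KO* heart 3 (0.054) or WT heart 2 (0.103), and *Gstt1* without *Smyd1-KO* heart 2 (0.0682), WT heart 1 (0.0507) or WT heart 2 (0.0944). *Gstm1* lost it without *Smyd1-KO* heart 2 (0.0578), *Smyd1-KO* heart 3 (0.0575), WT heart 2 (0.0858) or WT heart 3 (0.0706). The number of the 78 genes called was then 3 without *Smyd1-KO* heart 2, 2 without WT heart 2 and 8 without *Smyd1-KO* heart 1, where 248, 97 and 1256 of all tested genes were called.

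No gene was called by edgeR in the other groups, and counts at an unadjusted *P* under 0.05 are given beside the 13.1% of all tested genes that were higher and the 11.9% that were lower at that level. Of 7 genes of heme breakdown, 1 had an unadjusted *P* under 0.05 and DESeq2 called 0. That gene was *Ftl1*, the ferritin light chain that stores iron, also the most abundant of the group per kb, with 681, 604 and 626 CPM in *Smyd1-KO* hearts against 584, 505 and 497 CPM in WT hearts (log2 fold change 0.27, SE 0.10, adjusted *P*=0.159 by edgeR). Of 10 thioredoxin and peroxiredoxin genes, 1 was higher and 1 lower at that level, and DESeq2 called 0. *Prdx4*, the peroxiredoxin of the endoplasmic reticulum, had the smallest *P*, with 97.7, 96.6 and 110 CPM in *Smyd1-KO* hearts against 88.0, 73.8 and 74.2 CPM in WT hearts (log2 fold change 0.36, adjusted *P*=0.0762 by edgeR). *Txn1*, the substrate of TXNRD1 and the most abundant of the group per kb, ranged from 196 to 214 CPM in *Smyd1-KO* and from 176 to 231 CPM in WT hearts, which overlap (log2 fold change 0.07, 95% interval -0.21 to 0.35).

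Of the superoxide dismutases and catalase, 4 genes in all, 1 was higher and 1 lower at an unadjusted *P* under 0.05, and DESeq2 called 1 (9.29% of all genes), *Sod3*, the extracellular dismutase. The values were 6.42, 4.65 and 12.4 CPM in *Smyd1-KO* hearts, compared with 3.02, 2.93 and 2.51 CPM in WT hearts (log2 fold change 1.47, SE 0.36, adjusted *P*=0.0596 by edgeR). The cytosolic *Sod1*, the most abundant of these per kb, overlapped between genotypes at 211 to 224 CPM and 195 to 259 CPM. Of 6 genes listed under the supply of NADPH, the reductant for TXNRD1 and GSR, 3 were lower at an unadjusted *P* under 0.05, beside 11.9% of all tested genes, and DESeq2 called 0. The list includes *Tkt* and *Taldo1*, whose enzymes do not make NADPH themselves. *Pgd*, of the pentose phosphate pathway, had 167, 161 and 157 CPM in *Smyd1-KO* hearts against 212, 192 and 190 CPM in WT hearts (log2 fold change -0.29, SE 0.08, adjusted *P*=0.0763 by edgeR). *Taldo1*, of the same pathway and the most abundant of the group per kb, had 114, 111 and 112 CPM against 162, 136 and 132 CPM (log2 fold change -0.35, adjusted *P*=0.078 by edgeR). Among the 10 other NRF2 targets tested, 1 was higher and 3 lower at an unadjusted *P* under 0.05, beside 13.1% and 11.9% of all tested genes, and DESeq2 called 0. *Akr1b3*, the aldose reductase gene, had the smallest *P*, with 109, 93.5 and 89.1 CPM in *Smyd1-KO* hearts against 146, 127 and 129 CPM in WT hearts (log2 fold change -0.46, adjusted *P*=0.0506 by edgeR), and *Akr1a1*, the most abundant per kb, ranged from 349 to 442 CPM and from 333 to 404 CPM.

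**Figure D4:**
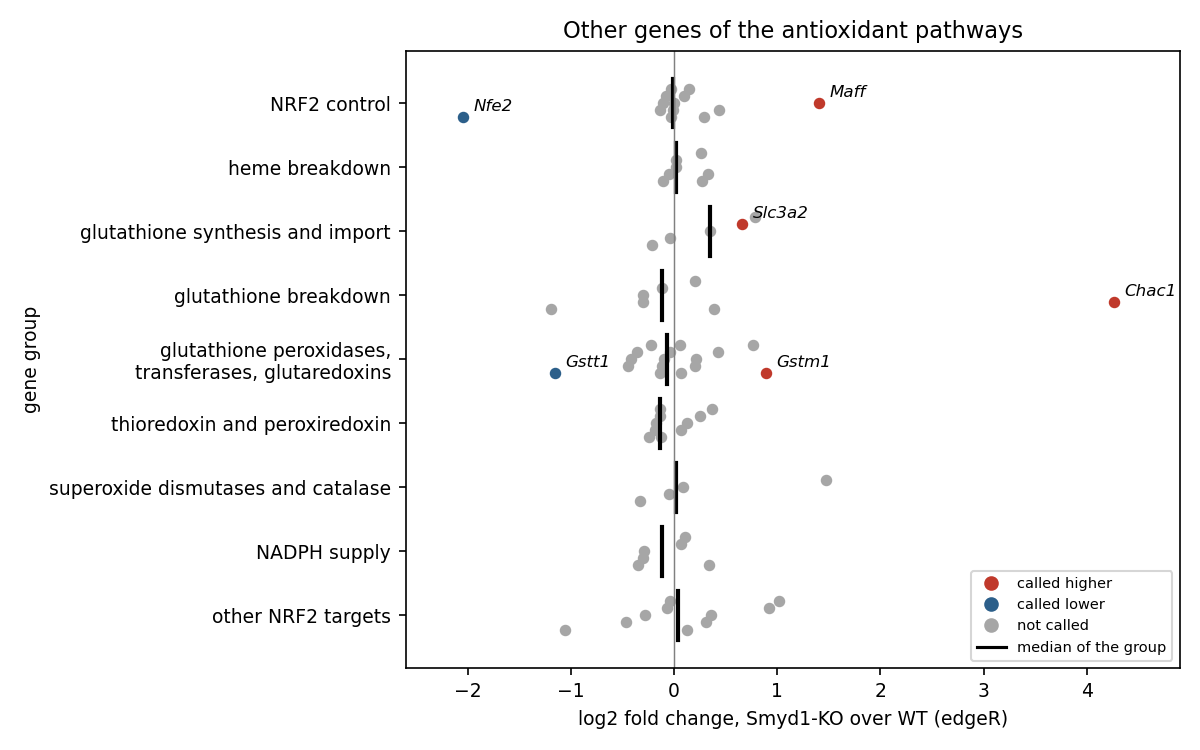
Log2 fold change, *Smyd1-KO* over WT by edgeR, of the 78 tested genes in 9 groups, with 1 point per gene and a black line at the median of each group. The 6 called genes are named, from *Nfe2* at -2.05 to *Chac1* at 4.26, and most other points lie close to 0.

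Whole hearts hold several cell types, and fewer cells of a type and less RNA per cell cannot be told apart. Markers are ordered by CPM within each list, without correction for exon length, and in every list CPM per kb puts another gene first in WT hearts, in *Smyd1-KO* hearts or in the mean over all hearts. Erythroid markers had negative log2 fold changes in 9 of 9 genes. They summed to 28.2, 283 and 164 CPM in *Smyd1-KO* hearts and to 749, 997 and 955 CPM in WT hearts. Of them, 8 were lower without overlap, as were 2993 of the 19372 tested genes. edgeR called 1, *Alas2*, with a log2 fold change of -2.19 (adjusted *P*=0.0428 by edgeR), beside 1.42% of all tested genes called lower, and DESeq2, which called 9.29% of all genes in either direction, called 6 lower. *Hba-x*, the highest in CPM in WT hearts and in the mean over all hearts, was at 6.68, 77.8 and 46.6 CPM against 252, 349 and 323 CPM, and *Hbb-y*, the highest in CPM in *Smyd1-KO* hearts, was at 6.99, 87.5 and 48.96 CPM against 182, 198 and 206 CPM. *Nfe2* moved with this list, and the part of red cells in the values of *Nfe2*, *Hmox1* or *Txnrd1* was not tested. Reads on mitochondrially encoded genes also differed, with 0.758%, 0.691% and 0.622% of the counts in *Smyd1-KO* hearts and 1.34%, 1.15% and 1.17% in WT hearts, and their part was not tested. With mitochondrial and hemoglobin genes left out, the log2 fold changes of *Hmox1* and *Txnrd1* were 1.27 and -0.64.

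Of 12 markers of macrophages, which express *Hmox1* strongly when they take up red cells, 7 did not pass the filter (*Adgre1*, *Fcgr1*, *Aif1*, *Cx3cr1*, *Ptprc*, *C1qa* and *C1qb*), with at most 11 counts in any heart, and each of these but *Aif1* was at 0 in at least 1 heart. The other 5 summed to 8.39, 9.54 and 10.7 CPM in *Smyd1-KO* hearts and to 10.9, 8.57 and 8.03 CPM in WT hearts, sums that overlap. *Mrc1*, the highest in CPM in *Smyd1-KO* hearts and in the mean over all hearts, and one that endothelial cells also express, had 3.97, 3.84 and 5.08 CPM against 2.67, 2.90 and 2.21 CPM. *Cd68*, the highest in CPM in WT hearts, went the other way without overlap, with 1.81, 2.30 and 2.54 CPM against 2.58, 3.48 and 4.13 CPM. edgeR called 0 of the 5, with 1 higher and 1 lower at an unadjusted *P* under 0.05, beside 13.1% and 11.9% of all tested genes. DESeq2 called 1 (*Mrc1*), beside its 9.29% of all genes in either direction.

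Cardiomyocyte markers, which define the labelled tissue, were abundant in all hearts. edgeR and DESeq2 called 0 of 10, beside 4.28% and 9.29% of all genes. At an unadjusted *P* under 0.05, 1 was lower, beside 11.9% of all tested genes. The 10 log2 fold changes had a median of -0.13, and 9 were negative, as were those of 9731 of the 19372 tested genes. *Myh6*, the highest in CPM in WT hearts and in the mean over all hearts, had 1407, 2622 and 2843 CPM in *Smyd1-KO* hearts against 3735, 4586 and 2925 CPM in WT hearts (log2 fold change -0.71, adjusted *P*=0.172 by edgeR). *Myh7*, the highest in CPM in *Smyd1-KO* hearts, had 1517, 3612 and 3434 CPM against 1980, 2260 and 1341 CPM, and was the 1 gene of the list with a positive estimate (0.62, adjusted *P*=0.306 by edgeR). Endothelial and endocardial markers summed to 694, 815 and 1038 CPM in *Smyd1-KO* hearts and to 756, 801 and 666 CPM in WT hearts. Of these 10 genes, 1 (*Cldn5*, log2 fold change 0.996, adjusted *P*=0.032 by edgeR) was called higher, beside 2.86% of all tested genes. At an unadjusted *P* under 0.05, 4 were higher and 2 lower, beside 13.1% and 11.9% of all tested genes. The highest in CPM, *Kdr*, had 186, 250 and 289 CPM against 142, 167 and 137 CPM (adjusted *P*=0.0569 by edgeR). *Nfatc1* and *Npr3* were lower without overlap, with log2 fold changes of -0.83 and -0.52 (adjusted *P*=0.0687 and 0.0567 by edgeR), and DESeq2 called 2 of the list higher and 2 lower, beside its 9.29% of all genes. The 7 epicardial markers summed to 159, 230 and 282 CPM in *Smyd1-KO* hearts and to 146, 125 and 155 CPM in WT hearts. edgeR called 0 of them, with 2 higher at an unadjusted *P* under 0.05, beside 13.1% of all tested genes. DESeq2 called 2 higher, beside its 9.29% of all genes in either direction. *Upk3b*, the highest in CPM in *Smyd1-KO* hearts and in the mean over all hearts, had 32.9, 58.6 and 90.5 CPM against 28.7, 21.6 and 22.2 CPM. *Tbx18*, the highest in CPM in WT hearts, had 22.6, 42.7 and 46.5 CPM against 30.2, 25.9 and 22.8 CPM, which overlap. Markers of liver bud and yolk sac endoderm varied from heart to heart in both genotypes, with sums of 45.3, 7.44 and 76.2 CPM in *Smyd1-KO* hearts against 7.42, 45.3 and 32.3 CPM in WT hearts. *Afp*, the highest in CPM in *Smyd1-KO* hearts through heart 3 and in the mean over all hearts, had 9.67, 0.0338 and 48.0 CPM in *Smyd1-KO* hearts, and *Ttr*, the highest in CPM in WT hearts, had 0.151, 15.4 and 7.84 CPM there. In this list 0 of the 9 tested genes were called by edgeR or DESeq2, and 0 had an unadjusted *P* under 0.05 by edgeR, beside 25.1% of all tested genes. The part of macrophages and of cardiac muscle, endothelial, epicardial and endodermal cells in the values of the antioxidant genes was not tested.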

How the data were processed

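The authors selected poly A RNA from embryonic hearts, made paired-end libraries and mapped the reads to mm10 by STAR. The raw count table that the authors deposited holds whole-number counts per gene without normalization. The counting tool and strand setting are not given in the sources used here, and the normalized table was not used. Counts were compared with edgeR 4.0.16 in R 4.3.3 (filterByExpr, TMM, quasi-likelihood test, Benjamini-Hochberg over 19372 genes). SE is the log2 fold change divided by the square root of F, and log2 CPM had a prior count of 2. Positions and exon lengths came from GENCODE M21. Alternatives were DESeq2 1.42.0, RLE or upper-quartile factors, no mitochondrial or hemoglobin genes, no filter, at least 10 counts in every heart, no limit on the fold change, the replicate number in the model, and leaving out each heart. The fits were tested on simulated data. The 10 genes and the lists were chosen with earlier results of these data known. Of the pathway genes, the called genes, the most abundant per kb and the one with the smallest *P* in each group were named by rule, and of each marker list the highest in mean CPM and any called gene. The *Hmox2*, *Txnrd2*, *Mafg*, *Mafk*, *Slc7a11*, *Nfe2l1*, *Hbb-y*, *Cd68*, *Myh7*, *Nfatc1*, *Npr3*, *Tbx18* and *Ttr* values were chosen after they were seen. Genes like *Hmox1* had a mean log2 CPM of at least 1. Another marker gene is not reported here.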

Additional observations from a re-analysis of the deposited data

How the results depend on the processing

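The numbers of calls and the log2 fold changes of the 10 genes, *Smyd1* and the 6 called pathway genes were recomputed under 14 alternatives, and other genes, the ratios and the medians were not. The log2 fold change of *Hmox1* lay between 1.14 and 1.37 in all of them, both ends of which came from leaving out 1 heart. It was past both thresholds in 12 of the 14, the exceptions being the fit without WT heart 2 and that with a replicate block. *Txnrd1* kept its negative sign in 14 of 14 and its call in 8. The number of the 10 genes called ran from 0 to 2 with each heart left out, and that of the other pathway genes from 2 to 8. Genes called among all those tested ran from 97 to 1256 with each heart left out, against 830 with all hearts, and DESeq2 called 1749. The fits with 5 hearts have fewer samples. *Nfe2l2* and *Keap1*, not called under any alternative, changed sign without *Smyd1-KO* heart 3 (-0.046 and -0.056), and *Keap1* also without WT heart 3 (-0.035). Leaving out single hearts, *Nfe2l2* ran from -0.046 to 0.100 and *Keap1* from -0.056 to 0.109.

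The replicate numbers are shared between different embryos. The deviations of same-numbered hearts from the genotype means correlated at -0.216, -0.0538 and -0.182. Pairs with different numbers ran from -0.156 to 0.286. With only 3 hearts of each genotype, these values cannot decide whether same-numbered hearts shared a litter or a batch. With the replicate block, 59 genes were called, among them 0 of the 10 genes and 1 of the other pathway genes (*Chac1*), and *Hmox1* had a log2 fold change of 1.262 (adjusted *P*=0.0856 by edgeR). Of the 10 genes, *Nqo1* rests on the fewest counts, 62 to 85 per heart, and its log2 fold change ran from 0.202 to 0.565 over the alternatives.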
